A study of Macaca mulatta with 24 samples.

Results

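The transcripts of 9 genes were examined in the nucleus accumbens core of 24 rhesus macaques: RAD21, SMC1A and SMC3, STAG1 and STAG2, NIPBL, PDS5A and PDS5B, and CTCF. They were taken as the rows of the deposited expression table that carry these symbols, and all 9 were found among 17208 symbols. All animals were unrelated adult male Macaca mulatta trained to obtain fluids and food from operant panels, and all passed through the same schedule-induced drinking protocol. The 8 Control animals received water from both spouts, and a maltose dextrin solution to match the calories of the drinkers. The paper describes animals of similar age apart from some older ones in LD*, and age was not a significant covariate there. Age was not used here. The 8 LD* animals all carried the label LD, and the 8 HD* animals were 4 labelled HD and 4 labelled VHD, with ethanol available beside water by self-administration. In the paper LD* pools low and binge drinkers, which the labels do not tell apart. Mean daily intake ran from 0.47 to 2.07 g/kg in LD*, from 2.74 to 3.09 g/kg in HD and from 3.09 to 3.78 g/kg in VHD. Brains were collected at the end of the open-access period without imposed abstinence, and the study's methods describe little or no ethanol in the blood at that time. The dissected tissue holds neurons and glia together, and in such bulk samples fewer cells of a type and less RNA per cell cannot be told apart.

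Cohesin is a ring-shaped complex that encircles chromatin. SMC1A and SMC3 form the long arms, RAD21 closes the ring, and STAG1 or STAG2 binds RAD21 as the alternative accessory subunit. NIPBL loads cohesin and drives the extrusion of chromatin loops, PDS5A and PDS5B associate with the ring and take part both in its stabilisation and in its release, and CTCF is the zinc finger protein that halts loops at its binding sites. In dividing cells the complex holds sister chromatids together until anaphase. In neurons, which no longer divide, it is known for organising loops between enhancers and promoters, and heterozygous loss of NIPBL is the main cause of Cornelia de Lange syndrome in humans.

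Levels are given in TPM (transcripts per 1000000), a share of each library's total after division by gene length, so a rise of abundant genes lowers every other value. The library totals lay between 999998 and 1000000 TPM, and the numbers of reads behind them were not used here. The 84 genes with ribosomal protein symbols took 7.60% to 12.8% of TPM in 20 libraries and 15.4% to 18.1% in the other 4, which were Control replicate 8, LD replicate 5, VHD replicate 3 and VHD replicate 4. One further library, Control replicate 6, had the lowest summed level of 10 striatal projection neuron markers at 739 TPM, against a highest value of 11202 TPM. Its median correlation with the other libraries was 0.878. No pair of libraries held identical values. Markers of dividing cells were low throughout, with a summed level of 7.92 to 19.3 TPM over 6 genes.

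All 9 transcripts were detected in every animal, but at very unequal levels. RAD21 was the most abundant member at 168 ± 33.0 TPM (mean ± SD, n = 24), above 93.4% of the symbols in the table. SMC3 at 36.1 ± 6.10 TPM and CTCF at 35.0 ± 6.81 TPM followed. STAG2 averaged 25.5 ± 5.36 TPM, PDS5A 19.2 ± 4.39 TPM and PDS5B 16.9 ± 4.82 TPM. The lowest were NIPBL at 11.0 ± 2.42 TPM, SMC1A at 10.0 ± 2.09 TPM and STAG1 at 8.40 ± 1.61 TPM. TPM is corrected for gene length, but the lengths used were not stated in the sources used here, and the order between genes rests on them.

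Most neighbours in this order kept their places within an animal. RAD21 exceeded SMC3 in 24 of 24 animals, CTCF exceeded STAG2 in 24, STAG2 exceeded PDS5A in 24, and SMC1A exceeded STAG1 in 24. SMC3 and CTCF could not be ordered, since SMC3 was the higher in 12 of 24 animals and the mean log2 ratio was 0.06 ± 0.16 (SD). PDS5A exceeded PDS5B in 20 animals, PDS5B exceeded NIPBL in 23 and NIPBL exceeded SMC1A in 17. Of the STAG pair, which are mutually exclusive partners of RAD21, STAG2 had the higher level by 3.04 ± 0.278 times (mean ± SD of the TPM ratio, n = 24), and its lowest ratio was 2.57.

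**Figure D1:**
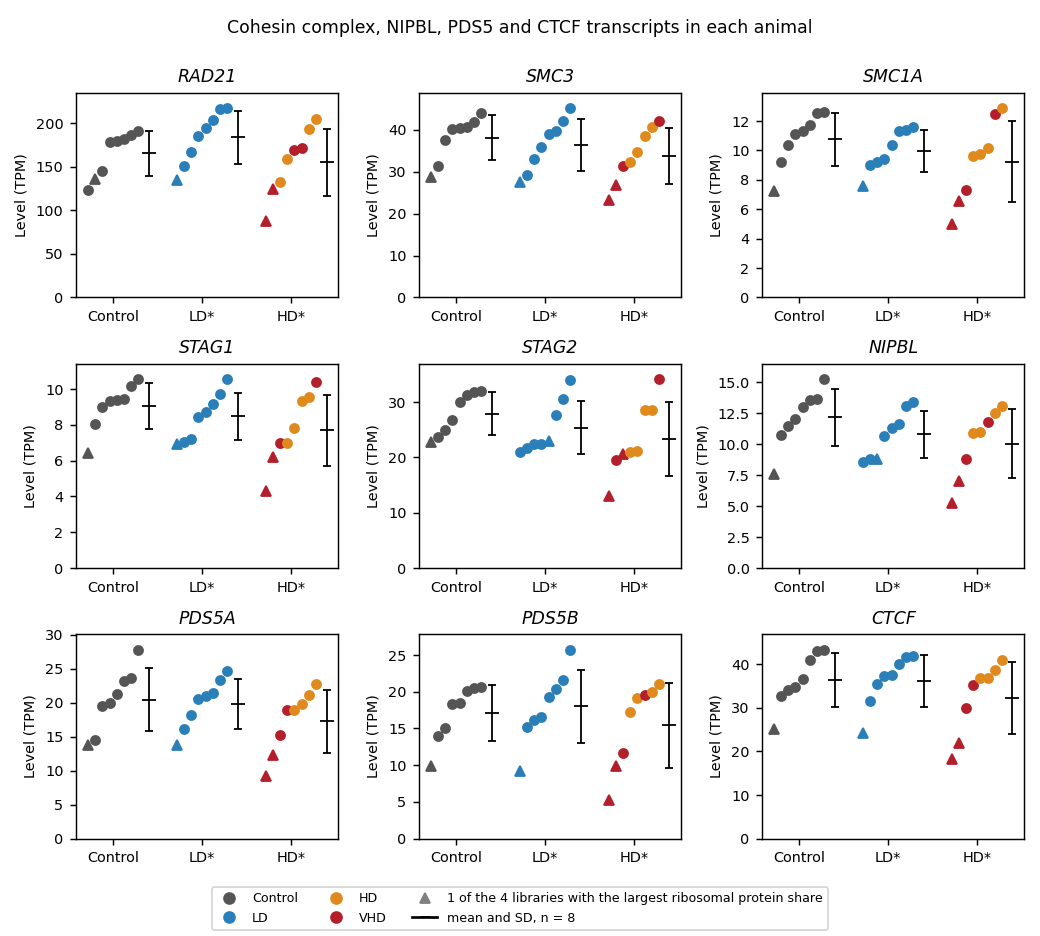
Level in TPM on a linear axis (vertical) of each of the 9 genes in every animal, grouped by drinking arm (horizontal). Each point is 1 animal, triangles are the 4 libraries with the largest ribosomal protein share, and the bar to the right of each arm is its mean and SD over 8 animals. The arms overlap for every gene, and the lowest value of every gene is 1 triangle in HD*, such as PDS5B at 5.22 TPM.

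The spread between animals was moderate for most members and widest for PDS5B. The coefficient of variation over the 24 animals ran from 16.9% for SMC3 to 28.6% for PDS5B, against a median of 21.0% and quartiles of 15.9% and 27.7% over the 9197 genes that averaged 10 TPM or more. PDS5B spanned 5.22 to 25.8 TPM, a ratio of 4.93 between the highest and lowest animal. SMC3 spanned 23.4 to 45.2 TPM, a ratio of 1.93.

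Much of this spread ran with the 4 libraries that have large ribosomal protein shares. In these 4 CTCF lay between 18.3 and 25.1 TPM, whereas in the other 20 it lay between 29.9 and 43.4 TPM. PDS5B lay between 5.22 and 9.95 TPM in the 4 and between 11.6 and 25.8 TPM in the others. For 5 members, SMC3, STAG1, PDS5A, PDS5B and CTCF, all 4 libraries lay below all 20 others, while RAD21, SMC1A, STAG2 and NIPBL overlapped. The same complete separation downward was seen for 19.1% of genes at 10 TPM or more. The median over the 9 members of the mean difference in log2(TPM + 1) between the 4 and the other 20 libraries was -0.62, and that over all genes at 10 TPM or more was -0.35. The summed level of 8 pan-neuronal markers was also low in these libraries, at 2006 to 2346 TPM against 3051 to 5613 TPM in the others. The part of either measure in the low member levels was not tested. Values without these 4 libraries are given beside the comparisons below.

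**Figure D2:**
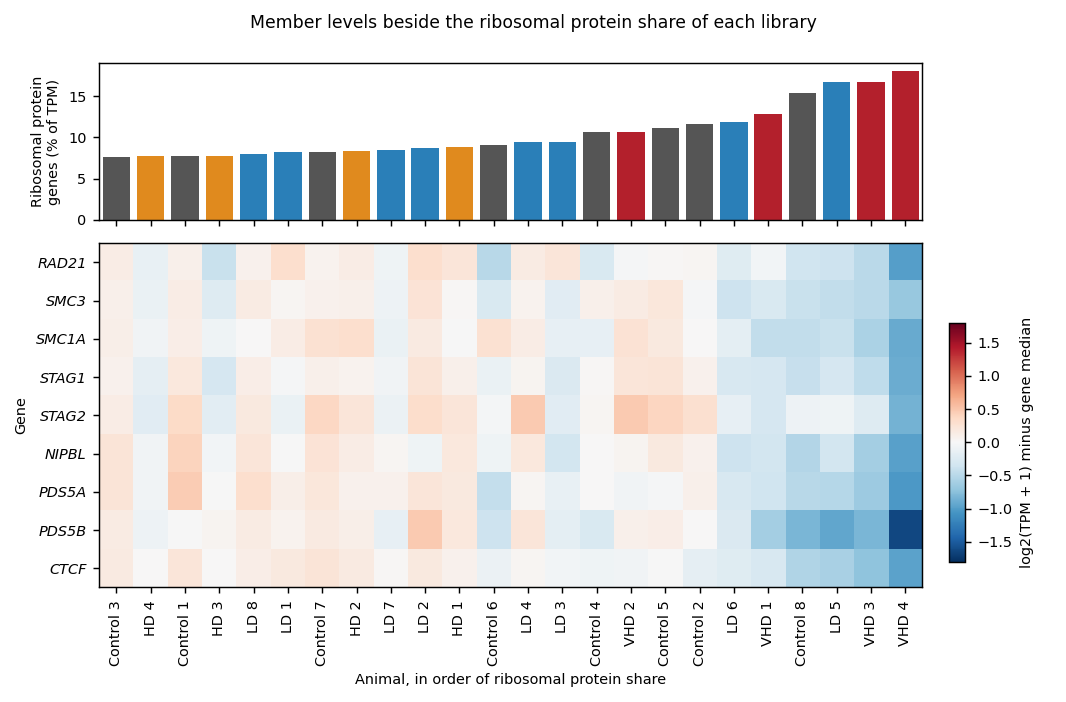
Top, share of TPM taken by 84 ribosomal protein genes in each library (%). Bottom, log2(TPM + 1) of each gene minus its median over the 24 animals, with animals ordered by that share and bar colours marking Control (grey), LD (blue), HD (orange) and VHD (red). The 4 libraries at the right, at 15.4% to 18.1%, hold low values of nearly all members, and VHD replicate 4, at the far right, has the lowest value of each gene.

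The first comparison asked whether heavy drinkers differed from controls in these transcripts, and no member passed the test. All 9 means were lower in HD* than in Control, by 0.12 to 0.29 on the log2(TPM + 1) scale, but the arms overlapped for every gene and the adjusted p-values ran from 0.706 to 0.824 (limma over all genes tested). Lower values were also the common direction across the transcriptome: 74.0% of the 9197 genes were lower in HD*, with a median of -0.10 over all genes and -0.24 over the members. Under limma 0 genes passed an adjusted p of 0.05, while 357 genes (3.88%) and 0 of the 9 members had an unadjusted p below 0.05. The study's own test of these arms, DESeq2 on read counts, did call many genes at an FDR below 0.05. The 0 here belongs to limma on log2(TPM + 1) and does not stand for the study's result.

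Among the ring subunits, RAD21 ranged from 124 to 192 TPM in Control with a median of 179, and from 87.7 to 205 TPM in HD* with a median of 164. SMC3 ranged from 28.7 to 44.0 TPM in Control with a median of 40.4, and from 23.4 to 42.2 TPM in HD* with a median of 33.6. SMC1A ranged from 7.27 to 12.6 TPM in Control with a median of 11.2, and from 5.03 to 12.9 TPM in HD* with a median of 9.70. The HD* ranges thus began lower and overlapped the Control ranges for most of their length. The differences in log2(TPM + 1) were -0.12 ± 0.15 (SE) for RAD21, -0.18 ± 0.13 for SMC3 and -0.24 ± 0.15 for SMC1A.

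Both accessory subunits had their lowest animals in HD*. STAG2 ranged from 22.8 to 32.1 TPM in Control with a median of 28.4, and from 13.0 to 34.2 TPM in HD* with a median of 21.1. STAG1 ranged from 6.41 to 10.6 TPM in Control with a median of 9.38, and from 4.28 to 10.4 TPM in HD* with a median of 7.41. STAG2 had the largest difference of the 9, -0.29 ± 0.15, with a 95% interval from -0.59 to 0.02, although its highest value of all was also in an HD* animal, VHD replicate 2. The difference of STAG1 was -0.24 ± 0.14.

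The loader NIPBL ranged from 7.63 to 15.3 TPM in Control with a median of 12.5, and from 5.26 to 13.1 TPM in HD* with a median of 10.9. PDS5A ranged from 13.8 to 27.9 TPM in Control with a median of 20.6, and from 9.25 to 22.7 TPM in HD* with a median of 18.9. PDS5B ranged from 9.95 to 20.6 TPM in Control with a median of 18.4, and from 5.22 to 21.1 TPM in HD* with a median of 18.2. The arms overlapped in all of these genes, and the PDS5B medians nearly coincided. The differences were -0.28 ± 0.16 for NIPBL, -0.25 ± 0.17 for PDS5A and -0.21 ± 0.23 for PDS5B. CTCF ranged from 25.1 to 43.4 TPM in Control with a median of 35.7, and from 18.3 to 41.0 TPM in HD* with a median of 36.0, so that its median was the higher in HD* while its mean log2 difference was -0.19 ± 0.15.

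The scale of these differences depended on the libraries and on the scaling. After TMM rescaling, which sets each library by the trimmed mean of its log ratios over genes at 10 TPM or more, all 9 members were still lower, by 0.02 to 0.19, where 49.8% of genes were lower and the median of all genes was 0.00. The genes with an unadjusted p below 0.05 then split into 148 lower and 135 higher, against 317 lower and 40 higher as deposited. Without the 4 libraries the members' differences ran from -0.18 to 0.02, with RAD21 the one above 0 and STAG2 the lowest, where 58.8% of genes were lower and their median was -0.03. Without Control replicate 6, the library with the fewest striatal neuron transcripts, the unadjusted p of STAG2 was 0.049 and its adjusted p in limma stayed above the threshold. In HD* versus Control all 10 striatal projection neuron markers were higher and all 9 oligodendrocyte markers lower, with medians of 0.42 and -0.37, and 0 of them passed after adjustment (limma). These values depended on Control replicate 6, and without it 6 of the 10 striatal markers were higher and 8 of the 9 oligodendrocyte markers lower, with medians of 0.03 and -0.18. The medians were 0.43 and -0.38 without the 4 libraries. With oligodendrocyte and pan-neuronal marker scores as covariates all 9 members were lower, by 0.08 to 0.20, and the smallest adjusted p was 0.794 (limma).

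**Figure D3:**
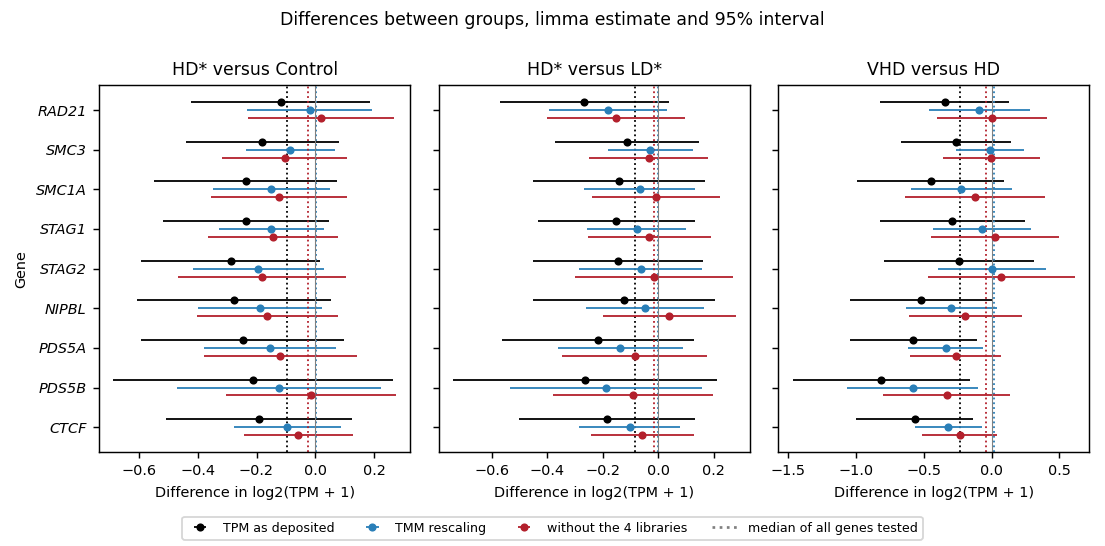
Difference in log2(TPM + 1) between the groups named above each panel (horizontal), for each gene (vertical), as the limma estimate with its 95% interval. Black is TPM as deposited, blue is after TMM rescaling and red is without the 4 libraries with the largest ribosomal protein share, and dotted lines mark the median of all genes tested in the same colours. In HD* versus Control every interval includes 0, and in VHD versus HD the intervals of PDS5A, PDS5B and CTCF exclude 0 in black and blue and include it in red.

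The second comparison set the LD* animals against controls. In LD* versus Control 7 of the 9 members were lower, where 51.7% of all genes were, and no member had an unadjusted p below 0.05, where 1.78% of genes did. RAD21 differed by 0.15 ± 0.15, with 135 to 217 TPM and a median of 190 in LD*, and the 2 highest RAD21 values of the study were the 2 cohort 4 animals of this arm. PDS5B differed by 0.05 ± 0.23. The other 7 members lay between -0.15 for NIPBL and -0.01 for CTCF. All of these are smaller than or close to their standard errors, and the adjusted p-values were 1.00 (limma). Without the 4 libraries the differences ran from -0.20 to 0.17 and 7 members were lower, where 51.4% of genes were. The signs of PDS5A, PDS5B and CTCF turned under alternatives and carry no direction.

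Between the drinking arms, all 9 members were lower in HD* than in LD*, by 0.11 for SMC3 to 0.27 for RAD21, where 74.1% of genes were lower and the median of all genes was -0.09. None had an unadjusted p below 0.05, against 0.728% of all genes, and the adjusted p-values ran from 0.914 to 0.937 (limma). RAD21 ranged from 135 to 217 TPM in LD* and from 87.7 to 205 TPM in HD*, and the lowest 2 HD* animals were VHD replicates 3 and 4. With cohort in the model the RAD21 difference was -0.38 with an unadjusted p of 0.018 and that of PDS5A was -0.40 with 0.049, where 4.69% of all genes had an unadjusted p below 0.05 and the median of all genes was -0.13. Neither passed after adjustment (limma, adjusted p = 0.611 for both). Within cohort 7a, the one cohort that holds both drinking arms, the RAD21 difference was -0.44. Without the 4 libraries 8 members were lower in HD* than in LD*, where 57.9% of genes were, and NIPBL was higher by 0.04.

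The fourth comparison was made within the heavy drinkers, between 4 VHD and 4 HD animals spread evenly over cohorts 5 and 7a. The differences were larger than in HD* versus Control for 8 of the 9, all but STAG2. All 9 were lower in VHD, by 0.24 for STAG2 to 0.81 for PDS5B, where 69.5% of all genes were lower with a median of -0.23. None passed an adjusted p of 0.05 in limma, whereas 2186 genes (23.8%) did. At an unadjusted p below 0.05 there were 3 members, CTCF, PDS5A and PDS5B, where 39.7% of genes had such a p.

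CTCF was 36.9, 36.9, 38.7 and 41.0 TPM in the HD animals and 18.3, 21.9, 29.9 and 35.2 TPM in the VHD animals, with no overlap. PDS5A was 18.9 to 22.7 TPM in HD and 9.25, 12.3, 15.3 and 18.9 TPM in VHD, so that the groups met at 18.9 TPM without crossing. PDS5B was 17.2, 19.1, 19.9 and 21.1 TPM in HD and 5.22, 9.95, 11.6 and 19.6 TPM in VHD. CTCF and PDS5A were thus the 2 members whose VHD values all lay below the HD values, which was the case for 23.0% of all genes, while for PDS5B VHD replicate 2 lay among the HD animals. The log2(TPM + 1) differences were -0.57 ± 0.20 (SE) for CTCF (adjusted p = 0.054), -0.58 ± 0.21 for PDS5A (adjusted p = 0.068) and -0.81 ± 0.30 for PDS5B (adjusted p = 0.068), each by limma.

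NIPBL was 10.9 to 13.1 TPM in HD and 5.26 to 11.8 TPM in VHD, a difference of -0.52 ± 0.24 with an adjusted p of 0.126 (limma). The ring and STAG subunits overlapped more widely. SMC1A was 9.65 to 12.9 TPM in HD and 5.03 to 12.5 TPM in VHD, RAD21 132 to 205 TPM and 87.7 to 172 TPM, and SMC3 32.4 to 40.7 TPM and 23.4 to 42.2 TPM. STAG1 was 7.00 to 9.54 TPM in HD and 4.28 to 10.4 TPM in VHD, and STAG2 21.0 to 28.6 TPM and 13.0 to 34.2 TPM. In SMC3, STAG1 and STAG2 the highest of the 8 heavy drinkers was therefore a VHD animal, in each case replicate 2.

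Single libraries moved the call in this comparison. With cohort as a covariate CTCF, PDS5A and PDS5B had adjusted p-values of 0.022, 0.032 and 0.032 (limma), where 31.0% of all genes passed. Without VHD replicate 2, 6 members passed the adjusted threshold, CTCF, NIPBL, PDS5A, PDS5B, SMC1A and SMC3, where 44.5% of genes did, while without any other of the 8 animals 0 members did. Across all 14 alternatives the adjusted p ran from 0.0071 to 0.225 for CTCF, from 0.0092 to 0.260 for PDS5A and from 0.0045 to 0.309 for PDS5B. Without VHD replicates 3 and 4, which are among the 4 libraries set apart and leave 2 VHD animals, the differences were -0.24 for CTCF, -0.26 for PDS5A and -0.33 for PDS5B, RAD21, STAG1 and STAG2 were at 0.00, 0.03 and 0.07, and the other 6 were lower, where 54.8% of genes were. Of all genes 879 (9.56%) then passed, and 0 members. After TMM rescaling the members' differences ran from -0.58 for PDS5B to 0.00 for STAG2, with the median of all genes at 0.02.

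Markers of cell types moved with the same contrast. All 8 pan-neuronal markers were lower in VHD and 5 passed the adjusted test (limma). Of the 13637 genes at 1 TPM or more 65.2% were lower and 1997 passed, 1556 of them lower. The summed level of the pan-neuronal markers was 2006 to 3841 TPM in VHD and 4568 to 4991 TPM in HD. Of 10 striatal projection neuron markers 9 fell, with summed levels of 3209 to 5944 TPM in VHD and 8675 to 10250 TPM in HD. At an adjusted p below 0.05 (limma) 4 of 8 microglial markers and 2 of 7 astrocyte markers rose. The summed microglial level was 437 to 746 TPM in VHD and 335 to 429 TPM in HD. That of the astrocyte markers was 4899 to 7775 TPM in VHD and 2154 to 3820 TPM in HD. The ribosomal protein share was 10.7% to 18.1% in VHD and 7.70% to 8.89% in HD. After TMM rescaling 3 pan-neuronal and 5 striatal markers fell, and 4 microglial and 3 astrocyte markers rose, at an adjusted p below 0.05 (limma). In that setting 2392 of the 9197 genes at 10 TPM or more passed, 1140 of them lower. The markers were tested among 13637 genes, and the number of those that passed in this setting or without the 4 libraries was not computed. Without the 4 libraries 1 pan-neuronal and 9 striatal markers fell, and 1 microglial and 0 astrocyte markers rose at an adjusted p below 0.05 (limma). Of the 9197 genes 879 then passed, 633 of them lower. Of the 7 astrocyte markers 4 had an unadjusted p below 0.05 (limma), where 2792 of the 9197 genes did. The part of these markers in the lower CTCF and PDS5 levels was not tested.

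Of the members RAD21 had the smallest unadjusted p in the test over cohorts (limma), and it did not pass after adjustment. In cohort 4 the 2 animals were at 216 and 217 TPM, the 7 animals of cohort 5 lay between 169 and 205 TPM with a median of 187, the 9 of cohort 7a between 87.7 and 185 TPM with a median of 151, and the 6 of cohort 7b between 124 and 204 TPM with a median of 162. Among the HD* animals the 4 of cohort 5 lay between 169 and 205 TPM and the 4 of cohort 7a between 87.7 and 159 TPM, without overlap. Every other member overlapped in this split, and the share of all genes that did not was not computed. The lowest 2 of these cohort 7a animals were VHD replicates 3 and 4, from the 4 libraries set apart. With arm in the model the F-test over cohorts gave an unadjusted p of 0.0057 for RAD21, and after adjustment p was 0.537 (limma). Of the 9 members 1 had an unadjusted p below 0.05 against 8.32% of all genes, and 0 genes passed after adjustment. The alternatives gave RAD21 unadjusted p-values from 0.0067 to 0.025, the largest without the 4 libraries.

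Control and HD* animals occurred together only in cohorts 5 and 7a. The HD* minus Control difference of RAD21 was -0.01 ± 0.19 in cohort 5 and -0.35 ± 0.21 in cohort 7a, and that of STAG2 was -0.10 ± 0.22 and -0.51 ± 0.25. PDS5A showed nearly the same value in both, -0.31 ± 0.27 and -0.29 ± 0.30. The interaction terms did not pass for any member, with adjusted p-values of 1.00 (limma), and with 2 to 4 animals per cell their intervals were wide: that of RAD21 ran from -0.96 to 0.28. The interaction terms ran from -0.47 to 0.06 without the 4 libraries and 0 passed (limma, smallest unadjusted p of 0.18).

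Intake varied within each drinking arm, and the slope of each transcript on intake was estimated over the 16 drinkers with arm in the model. All 9 slopes were negative, from -0.17 for NIPBL to -0.64 for PDS5B per g/kg of daily ethanol, where 70.6% of all genes had a negative slope with a median of -0.14. The slope of PDS5B was -0.64 ± 0.27 (SE), with an unadjusted p of 0.029 in limma. No other member had an unadjusted p below 0.05, where 9.09% of genes did. After adjustment p was 0.426 for PDS5B and 0 genes passed (limma). The other slopes included -0.36 ± 0.19 for PDS5A, -0.35 ± 0.19 for CTCF and -0.31 ± 0.18 for RAD21. Without the 4 libraries the PDS5B slope was -0.42 with an unadjusted p of 0.0070 and that of CTCF was -0.21 with 0.033, neither passing after adjustment. The size of the PDS5B slope depended on the model: it was -0.27 with no covariate, with an unadjusted p of 0.051, and -1.06 with arm and cohort as covariates, with an unadjusted p of 0.0086 and an adjusted p of 0.290 (limma). In that last model PDS5A and CTCF also had an unadjusted p below 0.05, where 16.7% of all genes did.

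Within LD*, RAD21 followed intake most closely of the 9 members. In order of intake the animals of cohort 4 drank 0.47 and 1.24 g/kg and had 217 and 216 TPM, those of cohort 7b drank 1.43, 1.82 and 2.07 g/kg and had 204, 195 and 135 TPM, and those of cohort 7a drank 1.82, 1.85 and 1.95 g/kg and had 167, 185 and 151 TPM. The level was lower at each higher intake in cohort 7b but not in cohort 7a. Spearman's rho was -0.958 (exact permutation p = 0.00069, adjusted over 18 relations 0.0125) and Pearson's r was -0.765 (exact permutation p = 0.019, adjusted 0.347), and r was -0.827 without the 2 animals of most distant intake. The 18 relations are those of the members alone, and the share of all genes with such a rho was not computed. Cohorts hold 2 or 3 LD* animals each, too few for a value within cohorts, so intake and cohort cannot be told apart here. After TMM rescaling rho was -0.719 (exact permutation, adjusted p = 0.304), and without LD replicate 5, 1 of the 4 libraries set apart, it was -0.937 (exact permutation, adjusted p = 0.0857). In HD* the RAD21 values gave r = -0.153 and rho = -0.299 (exact permutation p = 0.698 and 0.471). The other 16 relations, of each other member in each arm, were negative too, with Pearson's r between -0.652 and -0.0481, and none passed after adjustment.

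**Figure D4:**
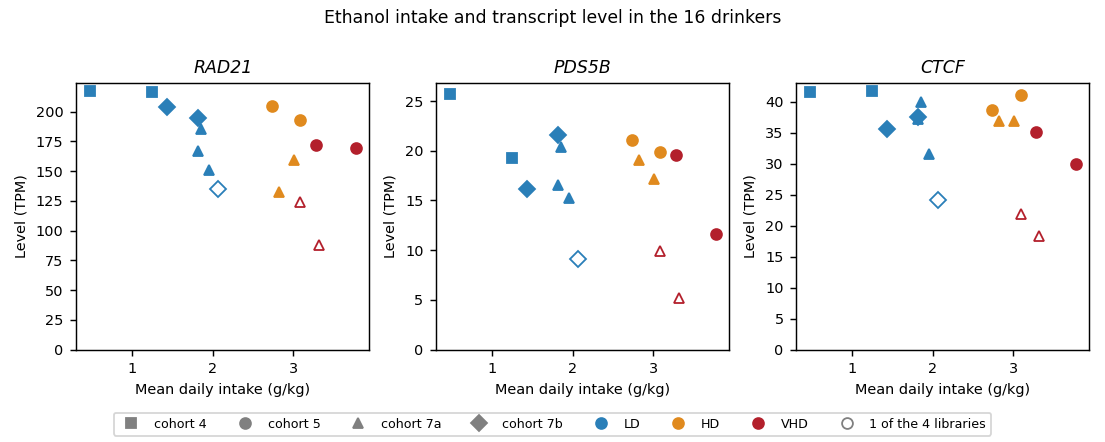
Level in TPM (vertical, linear) against mean daily ethanol intake in g/kg (horizontal) of RAD21, PDS5B and CTCF in the 16 drinkers. Each point is 1 animal, shapes are cohorts, colours are the labels LD, HD and VHD, and open symbols are those of the 4 libraries with the largest ribosomal protein share. RAD21 falls from 217 to 135 TPM over the LD* animals, and the lowest values of all 3 genes are open symbols.

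Ratios between partner subunits within an animal do not depend on how the library is scaled. The STAG2 to STAG1 ratio was 3.10 ± 0.260 in Control, 3.00 ± 0.365 in LD* and 3.03 ± 0.215 in HD* (mean ± SD, n = 8 each). The PDS5A to PDS5B ratio was 1.21 ± 0.187, 1.14 ± 0.188 and 1.20 ± 0.257, and the SMC1A to SMC3 ratio was 0.285 ± 0.0528, 0.275 ± 0.0201 and 0.268 ± 0.0354 in the same order. These 3 ratios differed between arms by less than their spread. The RAD21 to SMC3 ratio ranged from 3.56 to 4.78 in Control, from 4.39 to 6.18 in LD* and from 3.75 to 5.38 in HD*, so that LD* reached higher while the ranges overlapped. Its log2 value was higher in LD* than in Control by 0.22 (exact permutation test, two-sided p = 0.010), which did not pass over the 12 ratio tests (adjusted p = 0.125, with 0.034 without LD replicate 8 and up to 0.48 over the alternatives). Within cohorts 7a and 7b the difference was 0.27 (exact permutation p = 0.040). The other 11 ratio comparisons had exact permutation p-values from 0.0967 to 0.834.

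The PDS5 ratio was not constant across libraries. It was 1.24 to 1.77 in the 4 libraries with large ribosomal protein shares and 0.906 to 1.52 in the other 20, with medians of 1.44 and 1.11. PDS5B was thus the lower relative to PDS5A in those libraries, and it was also the member with the widest range.

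Correlations between the 9 transcripts across animals were high as deposited and lower without the 4 libraries and after rescaling. Over the 24 animals Pearson's r of log2(TPM + 1) between members ran from 0.684 for STAG2 with CTCF to 0.958 for SMC3 with STAG1, with a median of 0.870 over 36 pairs, against a median of 0.202 over all pairs of genes at 10 TPM or more. Spearman's rho ran from 0.489 to 0.937, and the largest permutation p adjusted over the 36 pairs was 0.00032. These values include the 4 libraries in which most members were low. Over the other 20 animals r ran from 0.213 for RAD21 with SMC1A to 0.939 for SMC3 with STAG1, with a median of 0.668 against 0.0545 over all gene pairs, and 31 of 36 pairs passed a permutation test with adjustment over the 36 pairs. The share of all gene pairs that would pass such a test was not computed. The quartiles of r over all gene pairs were -0.27 and 0.37 in the 20 animals and -0.18 and 0.54 in the 24. After TMM rescaling of the 24 libraries the range was 0.214 to 0.842 with a median of 0.604, and over the 20 animals after TMM rescaling it was -0.01 to 0.903 with a median of 0.462, against medians of -0.00 over all gene pairs in both.

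Some pairs stayed close under each of these treatments. SMC3 and STAG1 had the highest r with 24 animals, with 20 and after TMM rescaling of the 24, and STAG1 with STAG2 gave 0.917, 0.894 and 0.827. PDS5A and CTCF gave 0.937, 0.820 and 0.831. Over the 20 animals after TMM rescaling r was 0.903 for SMC3 with STAG1 and 0.857 for STAG1 with STAG2. For PDS5A with CTCF it was lower there, at 0.698. RAD21 was the member least like the rest once the 4 libraries were left out, at 0.213 with SMC1A, 0.282 with NIPBL and 0.396 with STAG2, none of which passed a permutation test over the 20 animals (adjusted p = 0.36, 0.24 and 0.091). Leaving out the 2 animals farthest from the median gave r between 0.503 and 0.948 over the 24, and between 0.139 and 0.962 over the 20. After TMM rescaling the same step gave 0.0064 to 0.878 over the 24 and -0.109 to 0.941 over the 20.

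**Figure D5:**
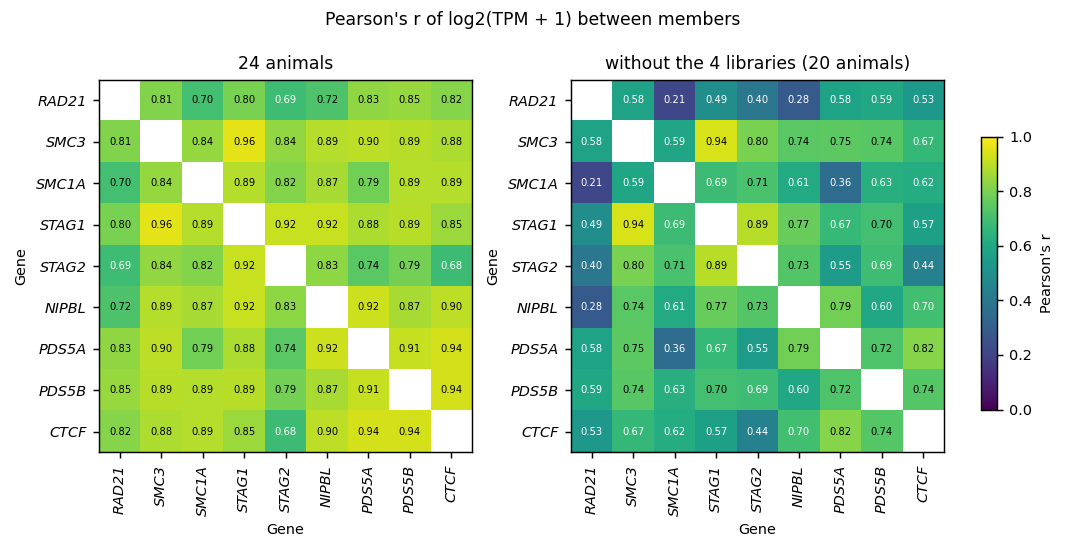
Pearson's r of log2(TPM + 1) between each pair of the 9 genes (both axes), over 24 animals at the left and over the 20 animals without the 4 libraries with large ribosomal protein shares at the right, on a colour scale from 0 to 1. The lowest r is 0.684 at the left and 0.213 at the right, and SMC3 with STAG1 is the highest in both.

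The genes whose pattern over the 24 animals was most like each member were found among all 9197 genes at 10 TPM or more by Pearson's r of log2(TPM + 1). CTCF lay nearest to MANSC1 (r = 0.987), ARCN1 (0.987) and HNRNPK (0.984), and NIPBL to NF1 (0.984), SMCHD1 (0.982) and TAOK1 (0.978). PDS5A lay nearest to ATRX, AGFG1 and NUDT21 (0.979 each), and PDS5B to UBR1 (0.970), ZC3H15 (0.968) and MAP2K4 (0.966). For STAG1 they were KRIT1 (0.963), TCEA1 (0.962) and SMC3 (0.958), the one case in which a member was among the 3 genes nearest to another. STAG1 and SMC1A, averaging under 10 TPM, could not themselves be named as nearest genes. For STAG2 they were TRAM1 (0.951), AP5M1 (0.942) and SENP6 (0.938). SMC1A lay nearest to PAFAH1B2 (0.952), PPP6R3 (0.950) and CRKL (0.947), SMC3 to IPO7, PHF3 and SP3 (0.939 each), and RAD21 to MGAT2 (0.930), ANKRD46 (0.916) and SRPK2 (0.914). Over the 20 animals without the 4 libraries these values lay between 0.796 for RAD21 with ANKRD46 and 0.969 for CTCF with MANSC1. Such values are maxima over 9197 genes that share libraries and scaling, and are given as a description.

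Other genes of the cohesin cycle covered a wide range of levels. MAU2, the partner of NIPBL in loading, averaged 19.4 TPM (11.5 to 24.2), and WAPL, which releases cohesin from chromatin, 19.5 TPM (11.0 to 28.0). HDAC8, which deacetylates SMC3, averaged 19.2 TPM, and ESCO1, which acetylates it, 6.49 TPM. Factors tied to sister chromatid cohesion were near the bottom of the scale: ESCO2 averaged 0.0856 TPM, CDCA5 (sororin) 0.435 TPM, and the shugoshins SGO1 and SGO2 0.0749 and 0.0573 TPM, with ESPL1 (separase) at 1.13 TPM. PTTG1 (securin) was the exception at 35.8 TPM. Of the germline paralogs, SMC1B was at 0 in 21 of 24 animals and CTCFL in 9, whereas STAG3 averaged 1.35 TPM.

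None of these genes passed the test in HD* versus Control. Of the 10 regulators 6 had a mean of at least 1 TPM, and 4 of the 6 were lower, where 77.8% of the 13637 genes at that level were. MAU2 differed by -0.21 ± 0.11, WAPL by -0.20 ± 0.16, ESCO1 by -0.20 ± 0.15 and HDAC8 by -0.25 ± 0.16, with adjusted p-values of 0.706 to 0.806 (limma), and STAG3 by 0.10 ± 0.15. In the related condensin and SMC5/6 complexes 10 of 12 tested genes were lower and 1, SMC4, had an unadjusted p below 0.05 (-0.29 ± 0.14), where 5.68% of genes did, and SMC5 differed by -0.26 ± 0.15. Of 10 genes that take part in looping or boundaries with CTCF or cohesin 9 were lower and 1, the Mediator subunit MED12, had such a p (-0.30 ± 0.14), followed by MED1 (-0.25 ± 0.16). After TMM rescaling 7 of the 12 and 9 of the 10 were lower, where 49.8% of the 9197 genes at 10 TPM or more were. The share over the 13637 genes was not computed after TMM rescaling or without the 4 libraries, here and below. In VHD versus HD all 6 regulators were lower, where 65.2% of the 13637 genes were, WAPL by 0.51 ± 0.20 with an adjusted p of 0.080 (limma), and MAU2 by 0.26 ± 0.20. After TMM rescaling 5 of the 6 were lower, where 4466 of the 9197 genes at 10 TPM or more were. Without the 4 libraries 2 of the 6 were lower, where 54.8% of those 9197 genes were. Of the looping partners 9 of 10 were lower in VHD versus HD. An unadjusted p below 0.05 was found for 6, where 4457 of the 13637 genes had one, and 0 passed after adjustment (limma). After TMM rescaling 8 were lower. Without the 4 libraries 7 were lower and 0 had such a p, where 2792 of the 9197 genes did. The condensin and SMC5/6 genes did not share this direction: 5 of 12 were lower and 7 higher with a median of 0.06. After TMM rescaling 9 were higher and 4 rose at an adjusted p below 0.05 (limma). Of the 9197 genes 2392 then passed, 1140 of them lower. Of the 12, 10 were higher without the 4 libraries and 0 passed after adjustment (limma). At an unadjusted p below 0.05 there were 4 of the 12, where 2792 of the 9197 genes had such a p.

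The clustered protocadherins are cell adhesion genes of neurons whose promoter choice is known to depend on CTCF and cohesin. Of 49 such symbols 39 had a mean of at least 1 TPM. In HD* versus Control 35 of the 39 were lower, where 77.8% of the 13637 genes were. Of the 39 only 1, PCDHB3, had an unadjusted p below 0.05 (-0.51 ± 0.23, limma), where 5.68% of genes did. PCDHGC3 differed by -0.29 ± 0.15, and 0 passed after adjustment (limma). After TMM rescaling 26 of the 39 were lower, where 49.8% of the 9197 genes at 10 TPM or more were. Most of the 39 averaged under 10 TPM, and the share over the 13637 genes was not computed in this setting or without the 4 libraries. As deposited, 77.8% of the 13637 genes and 74.0% of the 9197 were lower. Without the 4 libraries 25 were lower, where 58.8% of those 9197 genes were. In LD* versus Control 29 of the 39 were higher, with a median of 0.12, where 7918 of the 13637 genes were lower with a median of -0.03 over all of them. In VHD versus HD 38 of the 39 were lower with a median of -0.69, where 65.2% of the 13637 genes were lower. At an adjusted p below 0.05 (limma) 14 (35.9%) fell, where 11.4% of the 13637 genes fell. PCDHB3 was at -0.73 ± 0.22 and PCDHGC3 at 0.11 ± 0.23. After TMM rescaling 12 fell, where 1140 of the 9197 genes at 10 TPM or more fell. As deposited, 1556 of the 13637 genes and 1746 of the 9197 fell. Without the 4 libraries 35 of the 39 were lower with a median of -0.40, where 54.8% of those 9197 genes were. In that setting 2 of the 39 fell, where 633 of the 9197 genes did. Pan-neuronal and striatal neuron markers fell in the same contrast, as given above, and their part in the protocadherin levels was not tested.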

How the data were processed

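Polyadenylated RNA of the nucleus accumbens core was sequenced in 24 animals. According to the study's methods and the series' notes, reads were aligned to the MacaM assembly with STAR 2.5.2b and counted per gene with HTSeq 0.6.1p1. The sources used here differ on whether libraries were stranded and paired-end, so antisense reads may be included. The deposited values are TPM per gene symbol, a unit taken from the column totals since the authors call them normalised counts, and read depth cannot be recovered from them. The symbol column included 27 spreadsheet dates, and 0 per-sample columns were left unused.

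Groups, cohorts and intake were taken from the labels, which carry no replicate numbers, so replicates are numbered in accession order. Each library is from 1 animal. Values were tested as log2(TPM + 1), so that fold changes of low genes are understated, with limma 3.58.1 (R 4.3.3, empirical Bayes with a trend) on genes averaging 10 TPM or more and Benjamini-Hochberg adjustment over all of them. SMC1A and STAG1, with means just under that level, were taken from the same fit over 13637 genes at 1 TPM or more, as were companion genes. Thus 7 of 9 members passed the first level and 9 of 9 the second. The 3 arm contrasts used all 24 animals in 1 model, VHD versus HD the 8 HD* animals, the cohort test arm as covariate, and the intake slope arm as covariate. Ratios and correlations used exact permutation tests, or 100000 permutations with 20 or 24 animals (scipy 1.17.1). The code was tested on simulated data. Named genes were the 9 members, MAU2, WAPL, ESCO1 and HDAC8, the 2 genes with the smallest p in HD* versus Control of each other companion list, and the 3 genes most like each member. The members, lists and tests were chosen with earlier results of these data known. Alternatives covered the pseudocount, the minimum level, TMM rescaling, array weights, covariates, cohorts and each animal left out. The removal of the 4 libraries and of Control replicate 6 was added after seeing the data. No sequences or coordinates are given.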

Additional observations from a re-analysis of the deposited data

Results flagged for a closer look

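In 57 groups of 4 or 8 values examined for a single far value, 2 were found, and chance alone gives about 1 in 20. SMC1A was 12.9 TPM in HD replicate 2, against 9.65 to 10.2 TPM in the other 3 HD animals. The ratio of PDS5A to PDS5B was 1.77 in VHD replicate 4, 1 of the 4 libraries with the largest ribosomal protein share, against 0.968 to 1.31 in the other 7 HD* animals.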

How the results depend on the processing

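No paired analysis was made, since the animals were unrelated, each belonged to a single arm, and the labels name no pairs. No member passed the adjusted threshold (limma) in HD* versus Control, LD* versus Control, HD* versus LD*, by cohort, in the cohort interaction or on intake under any alternative run. In VHD versus HD the number of members that passed went from 0 to 3 with cohort as a covariate, and from 0 to 6 over the animals left out, the 6 without VHD replicate 2. Over all genes in this contrast the count went from 2186 to 879 without the 4 libraries, and from 739 without VHD replicate 3 to 4094 without VHD replicate 2. Without the 4 libraries signs turned to 0.020 for RAD21 in HD* versus Control, 0.039 for NIPBL in HD* versus LD*, and 0.0045, 0.027 and 0.073 for RAD21, STAG1 and STAG2 in VHD versus HD, as did the SMC1A to SMC3 ratio in HD* versus LD* (0.024). TMM rescaling turned STAG2 in VHD versus HD (0.0020) and CTCF in LD* versus Control (0.0064). Array weights turned SMC1A, STAG2 and NIPBL in HD* versus LD* to 0.0064, 0.021 and 0.038. In LD* versus Control, cohort as a covariate turned PDS5A to 0.063 and CTCF to 0.027, cohorts 7a and 7b alone turned PDS5A to 0.051, and leaving out 1 animal gave -0.10 to 0.040 for PDS5A, -0.046 to 0.18 for PDS5B and -0.078 to 0.071 for CTCF. Within cohorts the PDS5A to PDS5B ratio in LD* versus Control was 0.017 and the RAD21 to SMC3 ratio in HD* versus Control -0.034. With 1 animal left out the log2 ratio differences ran from -0.0086 to 0.067 for STAG2 to STAG1 and from -0.026 to 0.117 for PDS5A to PDS5B in HD* versus LD*, from -0.112 to 0.023 for PDS5A to PDS5B in HD* versus Control, from -0.078 to 0.039 for SMC1A to SMC3 in LD* versus Control, and from 0.178 to 0.249 for RAD21 to SMC3 in LD* versus Control, which passed without LD replicate 8. Correlations with intake turned under TMM rescaling for STAG2 in LD* (rho 0.120), NIPBL in LD* (rho 0.156, r 0.257), RAD21 in HD* (r 0.063) and SMC3 in HD* (rho 0.060), and without the 4 libraries for NIPBL in LD* (rho 0.126, r 0.132) and RAD21 in HD* (r 0.019). The causes of these changes were not tested. The filter at 100 TPM keeps RAD21 alone of the members, so it gives no count. Without read counts, no interval for counting error can be given, and the lowest members are the least certain.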
